A study of Homo sapiens with 6 samples.

Results

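WNT proteins, the secreted proteins that block them and the machinery that releases them decide how much Wnt signal a cell sends and meets. The set described here held 31 genes, namely the 19 WNT ligands, the 4 DKK, 4 SFRP, FRZB and WIF1 antagonists, PORCN and WLS. They were chosen by name, with earlier results of these data known. Of these, 28 had a probe set that names them alone, out of 19775 genes with such a probe set, and each was read by its brightest one. WNT3, whose 3 probe sets all name a further gene too, and WNT3A and PORCN were not analysed here.

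A WNT ligand is lipid-modified by PORCN in the endoplasmic reticulum and carried to the cell surface by WLS, also known as Wntless. It then binds a Frizzled receptor, with LRP5 or LRP6 as co-receptor where the signal runs through beta-catenin, or with receptors such as ROR2 where it does not. SFRP proteins, FRZB and WIF1 bind the ligands themselves, while DKK1, DKK2 and DKK4 bind LRP5 and LRP6. In liver, WNT2 and WNT9B from endothelial cells are known for keeping the beta-catenin program of hepatocytes near the central vein.

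Messenger RNA was measured on 6 Affymetrix HG-U133 Plus 2.0 arrays. The labels name the cells as HepG2, an established human line from a liver tumour, and RNA was taken 48 h after lipid transfection. The 3 control arrays come from cells given a negative control siRNA, and the other 3 from cells given an siRNA against RNF43, a ubiquitin ligase in the cell membrane by which Frizzled receptors are cleared from the surface. The labels name 1 siRNA for each group and no untransfected cells. They call the arrays biological replicates without saying whether the cultures were separate, so the p-values rest on a spread between arrays that may be partly technical. The following strands set the groups apart, as the labels give them, with bases 2 to 8 of each antisense strand, its seed, in capitals.

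RNF43 siRNA sense: cagaacagaaagcuauuautt
RNF43 siRNA antisense: aUAAUAGCuuucuguucugtt
Negative control siRNA sense: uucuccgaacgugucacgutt
Negative control siRNA antisense: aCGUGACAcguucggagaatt

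The values are log2 MAS5 signals, with array medians of 5.89 to 6.02 over 54613 probe sets, and the number of arrays limits the precision. RNF43, read by the probe set 218704_at alone, went against its label. Its log2 signals were 7.65, 7.79 and 7.45 on the control arrays and 8.19, 8.22 and 8.41 on the arrays labelled RNF43 siRNA (log2 difference 0.64, SE 0.14, limma adjusted p = 0.0098, and p = 0.1 in an exact two-sided permutation test, the smallest that 3 against 3 arrays allow). Over 19 alternative settings the difference ran from 0.48 to 0.72, and the call held in 18. It was lost without both arrays numbered 3 (0.48, limma adjusted p = 0.0537). Higher and lower refer throughout to the label RNF43 siRNA set against control. Most defining markers of hepatocytes were dim. Of 8 measured markers, 7 had means under the median of all probe sets and 5 were above the array's own median on 0 of 6 arrays, while TF was above it on 3 of 6, APOA1 on 1 of 6 and AFP on all 6. Among the 7 were ALB with group means of 4.19 and 4.24 and APOA1 with 5.18 and 5.19. The linear signals of the 8 summed to 313 to 454 on the control arrays and 214 to 295 on the others. The 9 fibroblast and stellate cell markers summed to 15921 to 16054 on the control arrays and 12502 to 13595 on those labelled RNF43 siRNA, and 4 of their 6 tested genes fell, against 11.1% of all tested genes. LUM alone, with mean linear signals of 10487 and 9228, made up most of the fibroblast sum. COL1A2, PDGFRB and THY1 of that list had means under the median of all probe sets. Of the hepatocyte and fibroblast markers 0 had a value of 0. Whether the cells on the arrays are HepG2 was not tested. In bulk RNA, fewer cells of a type and less RNA per cell cannot be told apart, and the part of these markers in the results below was not tested.

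Most WNT ligands and secreted antagonists were dim in these cells. Of the 28 genes, 11 rose above the median of all probe sets (log2 5.83 in the mean over the 6 arrays), or 39.3%, against 59.9% of all genes. These were WNT2B, WNT5A, WNT6, WNT7B, WNT9A, WNT10A, WNT10B, WNT16, DKK1, DKK3 and WLS. On each array set against its own median, 9 genes were above on all 6 arrays, 4 on some and 15 on 0. WNT16, at 5.87, was the gene just inside the limit and stood above the array's own median on 3 of 6 arrays, followed by WNT2B at 6.29 with 5 of 6. Just outside were WNT5B, at 5.33 and above on 2 of 6, and SFRP1, with group means of 4.87 and 5.12 and above on 1 of 6. With each gene's probe sets averaged in place of the brightest, 5 genes were above the limit. WNT2B, WNT6, WNT9A, WNT10A and WNT16 each had only 1 probe set above it. The others of WNT6 had means of 4.85, 2.75 and 2.61, and the second ones of WNT9A, WNT10A and WNT16 had 2.77, 2.33 and 3.23. The level of a MAS5 probe set also depends on its probes, so levels of different genes were not ranked against each other.

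**Figure D1:**
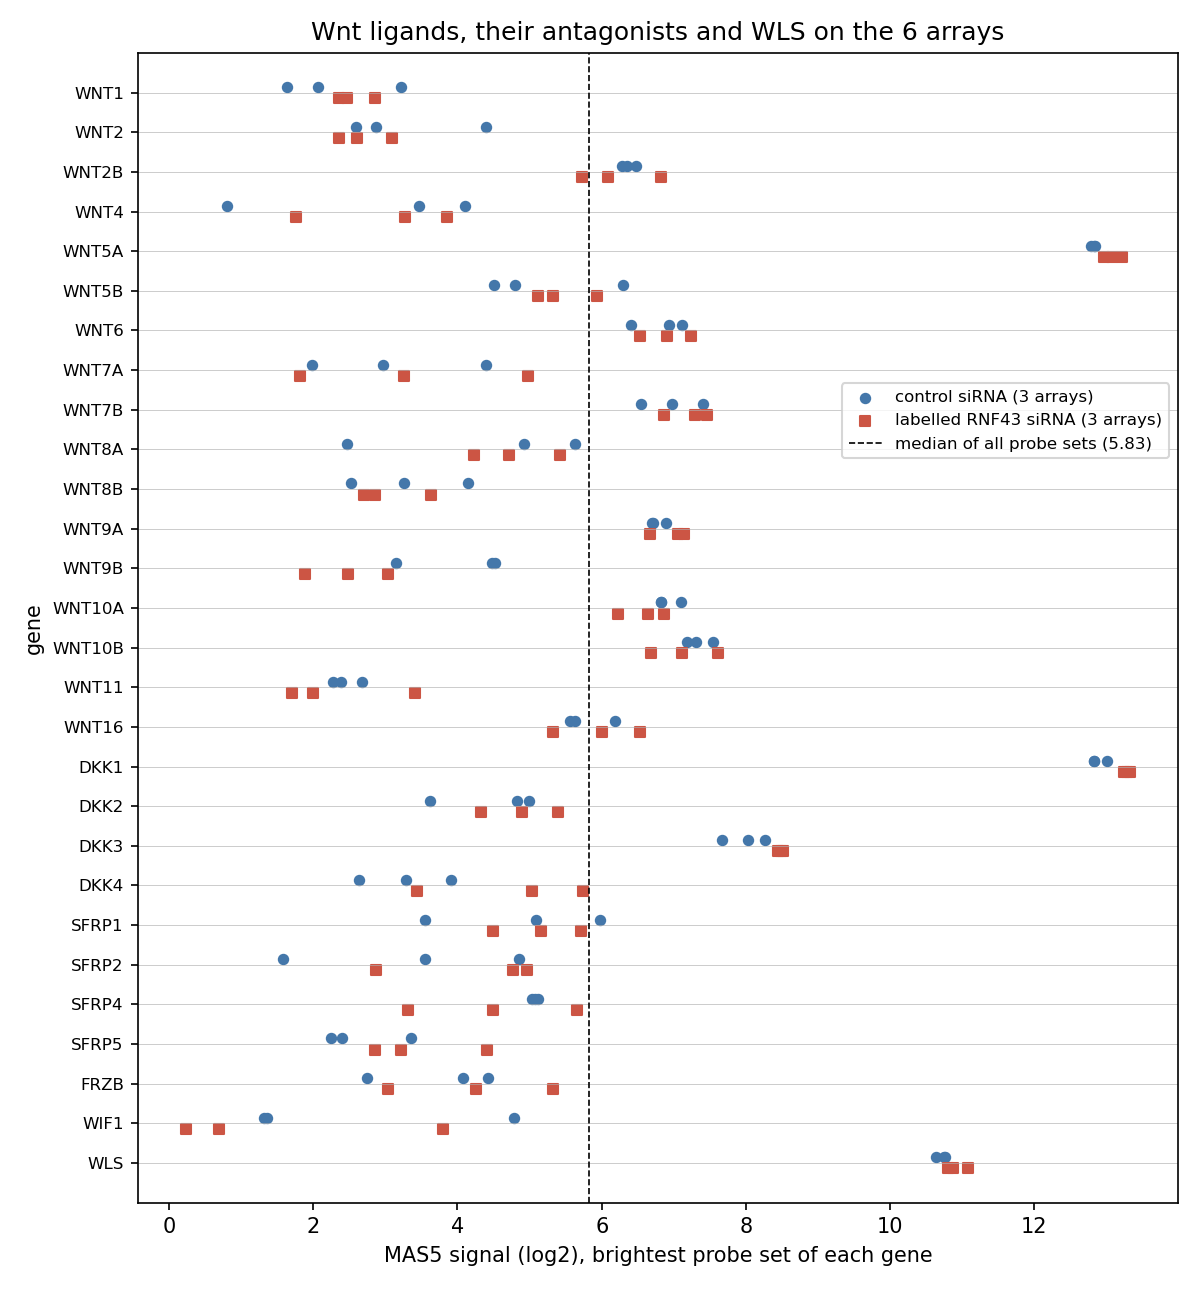
Log2 MAS5 signal (horizontal axis) of the 28 genes (vertical axis), each by its brightest probe set, with 3 control arrays as circles and 3 arrays labelled RNF43 siRNA as squares. The dashed line is the median of all probe sets at 5.83, with the means of 11 genes to its right and of 17 to its left.

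Between the groups, DKK1, DKK3 and WNT5A rose under the label RNF43 siRNA, by 1.31-fold, 1.41-fold and 1.2-fold. Of the 11 genes tested, these 3 rose, 0 fell (0 also at an unadjusted p under 0.05) and 8 did not pass (limma, adjusted p under 0.05 over 11853 genes). Among all tested genes 22.6% changed, 11.5% higher and 11.1% lower. The median log2 difference was 0.19 over the 11 genes and 0.00 over all tested genes. Of the 11 differences 8 were positive, as were 49.5% of those of all tested genes. Of the 11 tested genes, DKK1, DKK3, WNT5A and WLS had groups that did not overlap, all with higher values under the label RNF43 siRNA. Among all tested genes, 19.1% had groups apart in that direction and 19.8% in the other. The 3 risen genes were called on these same values, so their lack of overlap is no separate evidence.

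**Figure D2:**
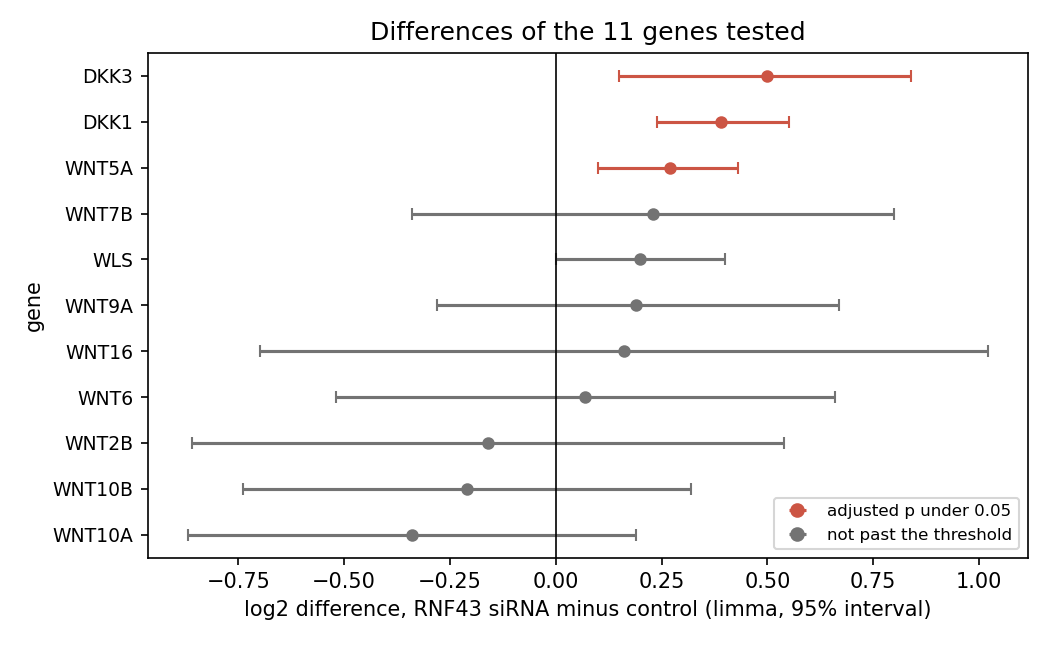
Log2 difference, RNF43 siRNA minus control, for each of the 11 tested genes, with limma's 95% confidence interval as the bar and 3 arrays per group. The intervals of DKK3, DKK1 and WNT5A lie above 0, that of WLS starts at 0.00, and the other 7 cross 0.

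DKK1, a secreted antagonist that binds LRP5 and LRP6 and is itself a known beta-catenin target gene, rose in every setting tried. Its log2 signals were 12.83, 12.83 and 13.01 on the control arrays and 13.28, 13.24 and 13.33 on the arrays labelled RNF43 siRNA. All 3 of the latter lay above all 3 controls, and the groups spread little, with means of 12.89 ± 0.10 and 13.28 ± 0.05 (SD, n = 3). The log2 difference was 0.39 (SE 0.07, limma adjusted p = 0.00259), a 1.31-fold rise with a 95% confidence interval of 1.18 to 1.46. DKK1 kept its call in all 19 alternatives, with differences of 0.36 to 0.45 and adjusted p from 7.19e-05 to 0.0232. Only 1 probe set read it.

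DKK3, a divergent DKK protein that is not known to share the LRP5 and LRP6 binding of DKK1, was higher on its brightest probe set. That probe set read 8.26, 8.03 and 7.67 on the control arrays and 8.49, 8.45 and 8.51 on the others. The control arrays were spread widely (7.99 ± 0.30, SD, n = 3) below the tight values of the arrays labelled RNF43 siRNA (8.48 ± 0.03). The log2 difference was 0.50 (SE 0.15, limma adjusted p = 0.0419), or 1.41-fold with a 95% confidence interval of 1.11 to 1.79.

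The DKK3 call depended on the probe set and on single arrays. DKK3 had 6 probe sets, of which 3 passed the filter. A second one, 202196_s_at, read 5.48, 6.53 and 6.20 on the control arrays and 7.23, 7.28 and 7.05 on the others, without overlap (log2 difference 1.12, SE 0.29, limma adjusted p = 0.0269 over all tested probe sets). Its control mean of 6.07 lay close to the limit of 5.83. The third, 230508_at, read 7.06, 6.91 and 7.45 against 6.72, 7.16 and 7.45, with overlapping groups and a log2 difference of -0.03. In the fit over all probe sets the brightest one no longer passed (adjusted p = 0.0606). In the fit over genes DKK3 did not pass in 10 of 18 alternatives, among them those without control siRNA replicate 2 (0.52, adjusted p = 0.0852) or replicate 3 (0.34, 0.104), without RNF43 siRNA replicate 1 (0.49, 0.0997), replicate 2 (0.51, 0.102) or replicate 3 (0.48, 0.088), and without both arrays numbered 3 (0.33, 0.144). In another of the 10 the difference turned to -0.03, when probe sets ending in _x_at or _s_at were left out, whose probes can also bind other transcripts of the gene or of related genes, and the adjusted p of all alternatives ran from 0.0175 to 0.94.

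WNT5A, a ligand best known for signalling without beta-catenin through ROR2 and for limiting beta-catenin signalling in some settings, rose on both of its probe sets. The brighter, 205990_s_at, read 12.84, 12.79 and 12.83 on the control arrays and 12.97, 13.22 and 13.07 on the arrays labelled RNF43 siRNA. The control arrays lay within a narrow band (12.82 ± 0.03, SD, n = 3) below all 3 of the others (13.09 ± 0.13). The log2 difference was 0.27 (SE 0.07, limma adjusted p = 0.0262), or 1.2-fold with a 95% confidence interval of 1.07 to 1.35.

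The other WNT5A probe set, 213425_at, read 11.17, 11.15 and 11.35 against 11.42, 11.61 and 11.62, again without overlap. Its log2 difference was 0.33 (SE 0.09, limma adjusted p = 0.0284 over all tested probe sets). Over genes, the WNT5A call was lost in 4 of 19 alternatives, which were those without an intensity trend (0.27, adjusted p = 0.0877), without control siRNA replicate 1 (0.27, 0.0715) or replicate 2 (0.25, 0.0935), and without RNF43 siRNA replicate 2, the array with the highest WNT5A value (0.20, 0.103). Its difference was positive in all 19, from 0.20 to 0.33, with adjusted p from 0.00454 to 0.103. ROR2, the WNT5A receptor, had group means of 6.42 and 5.77 that did not differ beyond their spread (log2 difference -0.65, limma adjusted p = 0.383).

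WLS, the carrier that brings lipid-modified WNT proteins to the surface, was read by 3 probe sets that did not move together. The brightest, 221958_s_at, read 10.75, 10.64 and 10.76 on the control arrays and 10.80, 11.08 and 10.87 on the others. The groups did not overlap, but the log2 difference of 0.20 (SE 0.09, 95% confidence interval 0.00 to 0.40) did not pass (limma adjusted p = 0.14). The probe set 228949_at read 10.77, 10.61 and 10.82 against 10.54, 10.58 and 10.72, a log2 difference of -0.12, and 228950_s_at differed by 0.03. Both had overlapping groups. The upper end of the interval of the brightest probe set is a 1.32-fold rise.

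**Figure D3:**
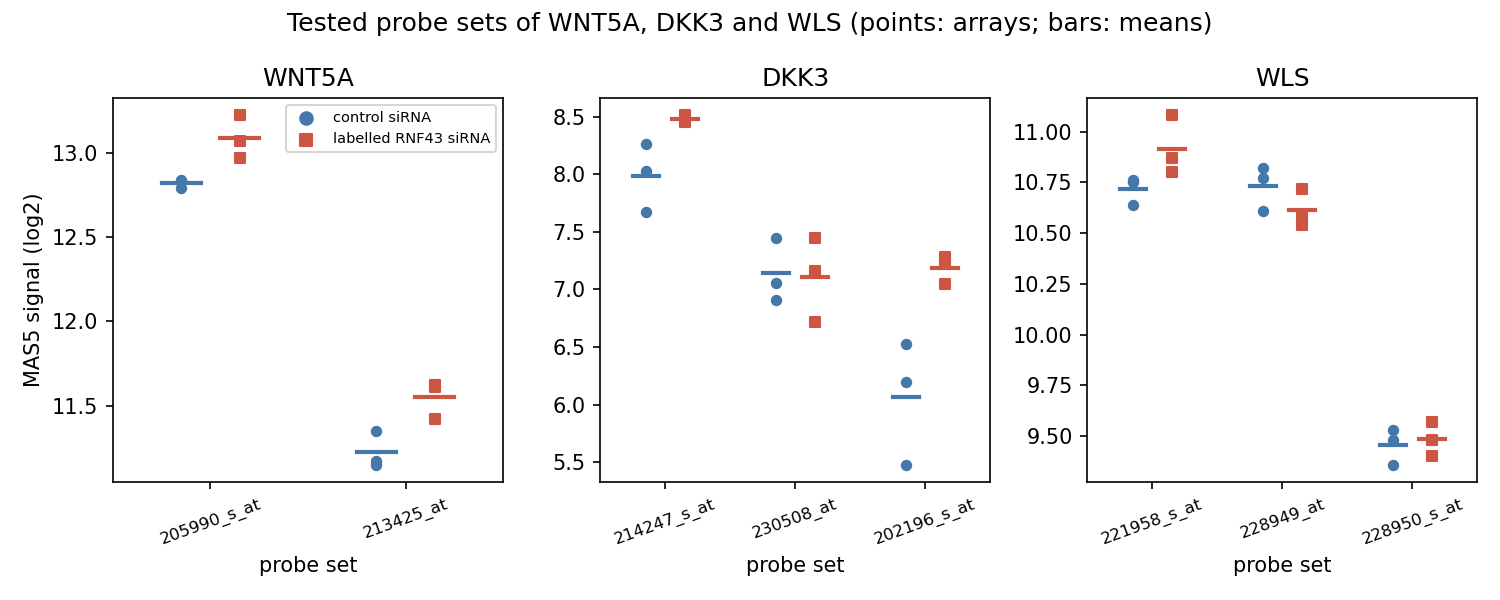
Log2 MAS5 signal (vertical axis, own scale in each panel) of the tested probe sets of WNT5A, DKK3 and WLS, with arrays as points (circles control, squares labelled RNF43 siRNA) and group means as bars. Both WNT5A probe sets are higher under that label, 2 of 3 DKK3 probe sets are, and the WLS probe sets differ in sign.

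The other 7 tested WNT genes did not pass, and their groups overlapped. WNT10A, a ligand needed for teeth and skin appendages, read 7.10, 6.82 and 6.82 on the control arrays and 6.22, 6.87 and 6.64 on the others. Its log2 difference was -0.34 (95% confidence interval -0.87 to 0.19, limma adjusted p = 0.356). WNT10B, known for holding back fat cell formation, read 7.18, 7.31 and 7.55 against 6.69, 7.61 and 7.11. The 3 arrays labelled RNF43 siRNA spanned the controls, with a difference of -0.21 (-0.74 to 0.32).

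WNT7B, a ligand of lung and of brain vessels, read 7.41, 6.97 and 6.55 on the control arrays and 7.46, 7.29 and 6.87 on the others. Its difference was 0.23 (95% confidence interval -0.34 to 0.80), and its second tested probe set, 238105_x_at, gave -0.04. WNT9A, a ligand of developing joints, read 6.89, 6.71 and 6.70 against 7.06, 6.67 and 7.14. One array labelled RNF43 siRNA lay below all controls, and the difference was 0.19 (-0.28 to 0.67).

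WNT6, an ectodermal ligand, read 6.41, 6.94 and 7.12 on the control arrays and 6.53, 6.91 and 7.24 on the others. The array-to-array spread was far wider than its difference of 0.07 (95% confidence interval -0.52 to 0.66, or 0.698-fold to 1.58-fold). WNT2B read 6.48, 6.28 and 6.35 against 5.73, 6.09 and 6.82, and WNT16, a ligand of bone, 5.63, 5.56 and 6.19 against 6.01, 5.32 and 6.53. In both the arrays labelled RNF43 siRNA enclosed the controls, with differences of -0.16 (-0.86 to 0.54) and 0.16 (-0.70 to 1.02). A rise of the size seen in DKK1 (0.39) lay inside the intervals of 5 of these 7 genes and outside those of WNT10A and WNT10B. Among the 4 genes with more than 1 tested probe set, 3 (WNT7B, DKK3 and WLS) had differences of both signs.

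The remaining 9 WNT genes, WNT1, WNT2, WNT4, WNT5B, WNT7A, WNT8A, WNT8B, WNT9B and WNT11, were under the limit and not tested. Their array values ran from 0.80 to 6.30, and 8 of the 9 were above the median on 0 of 6 arrays. The exception was WNT5B, a close relative of WNT5A, which read 6.30, 4.51 and 4.80 on the control arrays and 5.93, 5.11 and 5.33 on the others. Unlike WNT5A it crossed the array median on only control siRNA replicate 1 and RNF43 siRNA replicate 1.

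The liver vessel ligands WNT2 and WNT9B were both dim. WNT2 read 2.87, 4.40 and 2.59 on the control arrays and 3.09, 2.61 and 2.35 on the others, with overlap. WNT9B read 4.52, 3.15 and 4.48 against 1.88, 2.48 and 3.03, and was the only one of the 9 whose groups did not overlap, with lower values under the label RNF43 siRNA. Of all genes under the limit, 6.31% had groups apart in that direction and 4.33% in the other. Values this far down lie where MAS5 signals are noisy, so no fold is given.

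The secreted antagonists other than DKK1 and DKK3 were also dim. SFRP1, SFRP2, SFRP4, SFRP5, FRZB and WIF1, which bind WNT proteins outside the cell, all lay under the limit, with array values of 0.23 to 5.97 and log2 differences of -0.92 to 0.88. In 5 of these 6 genes 0 of 6 arrays were above the array median, and SFRP1 crossed it on 1 array at 5.97. The groups of all 6 overlapped on the brightest probe set. DKK2, which binds LRP6 as DKK1 does, read 4.83, 4.99 and 3.62 on the control arrays and 4.90, 4.32 and 5.39 on the others. DKK4, which also binds LRP5 and LRP6, read 3.28, 2.63 and 3.91 against 5.04, 5.74 and 3.44. In DKK4 2 of 3 arrays labelled RNF43 siRNA lay above the controls and 1 lay among them, all under the median.

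Over single probe sets, 59 named 1 of the 28 genes, and 17 of them passed the filter. Of the 17, 4 rose and 0 fell (limma, adjusted p under 0.05), namely 1 of DKK1, 1 of DKK3 and both of WNT5A. Among all tested probe sets, 17.7% changed in either direction, and 9.01% of all tested were higher. Of the 42 under the limit, 1 had groups apart and higher and 2 apart and lower, against 4.72% and 6.03% of all probe sets under the limit. The higher one was 203698_s_at of FRZB, at 2.83, 1.14 and 2.84 on the control arrays and 4.77, 4.20 and 4.59 on the others. The lower ones belonged to WNT9B, given above, and WNT16, whose 224022_x_at read 5.05, 3.77 and 4.12 against 3.68, 2.68 and 0.09. The 3 other FRZB probe sets and the brighter WNT16 probe set had overlapping groups. A value at 0, the floor of the deposited signals, stood in 2 of the 59 probe sets and in 0 of the brightest ones.

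The spread between arrays was smaller in the genes above the limit. The pooled SD within groups was 0.08 to 0.50 log2 units over the 11 tested genes, with a median of 0.26, and 0.60 to 1.97 over the 17 genes under the limit, with a median of 0.83.

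WNT genes that lie side by side in the genome did not share their side of the limit throughout. In the RefSeq gene order of GRCh38.p14, WNT6 and WNT10A on chromosome 2 have 0 protein-coding genes between them. Both were above it, though only by 1 of 4 probe sets of WNT6 and 1 of 2 of WNT10A. WNT10B and WNT1 on chromosome 12 are neighbours too, and WNT10B was above the limit while WNT1 was on 0 of 6 arrays above the array median, with values of 1.64 to 3.21. WNT9B, under the limit, lies next to WNT3 on chromosome 17, which was not analysed here.

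**Figure D4:**
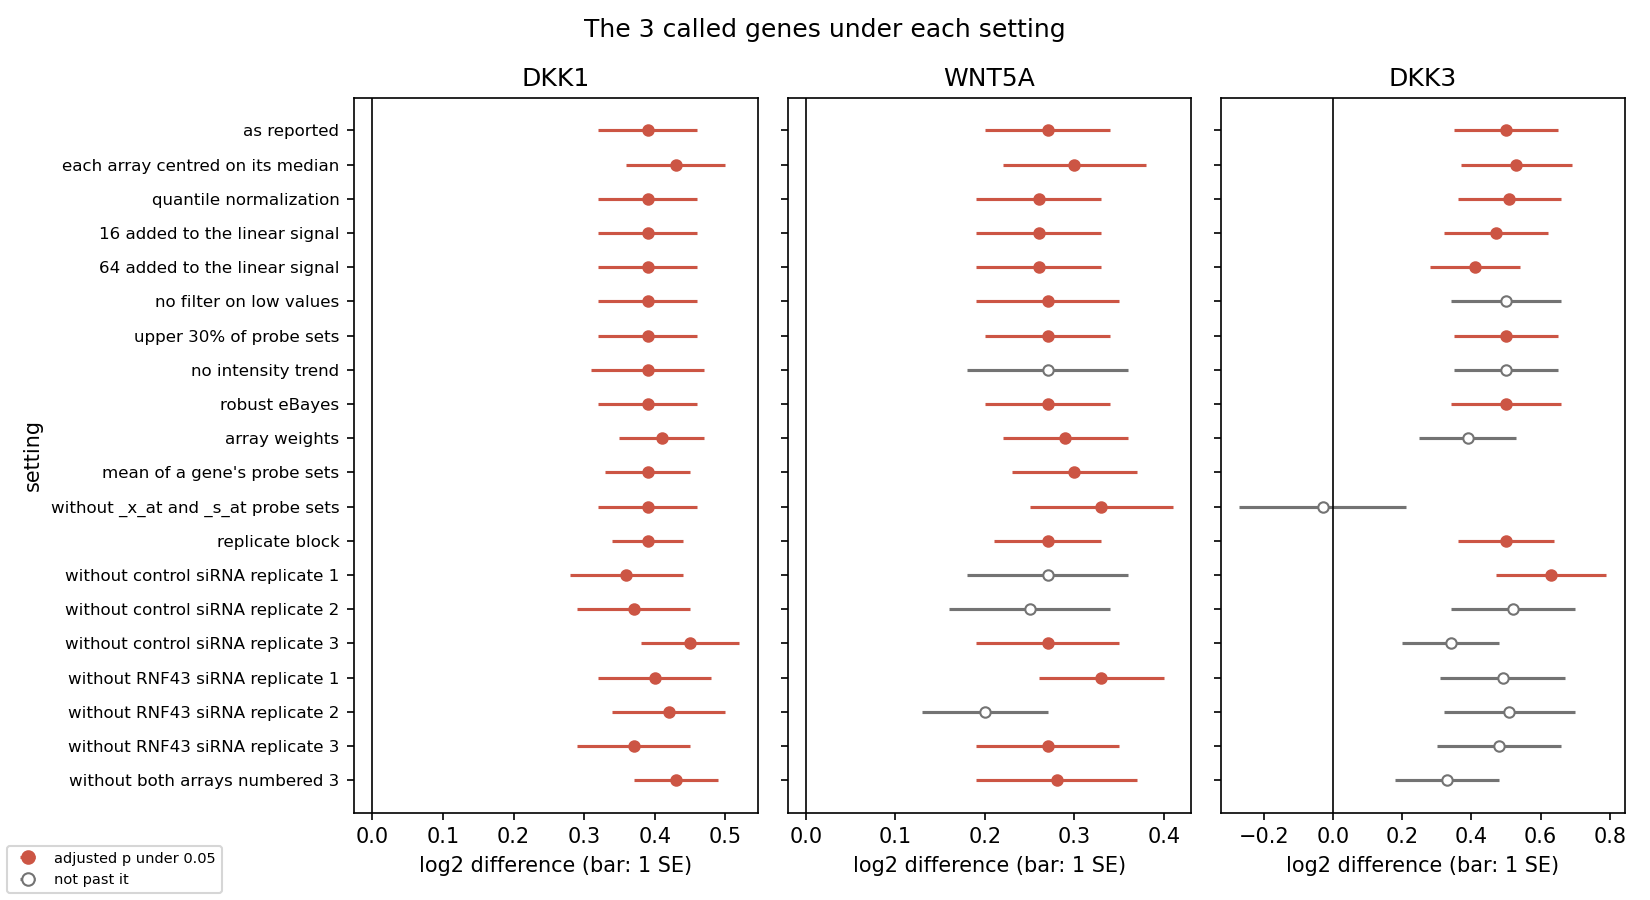
Log2 difference with 1 SE (horizontal axis, own scale in each panel) of DKK1, WNT5A and DKK3 as reported and under each alternative (vertical axis), with filled points for adjusted p under 0.05. DKK1 is filled throughout at 0.36 to 0.45, WNT5A opens in 4 alternatives and DKK3 in 10 of 18, with no point where the mean of its probe sets fell under the filter.

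The promoters of DKK1 and WNT5A are shown because both genes moved in the same direction. RefSeq's table for GRCh38.p14 holds 1 start for DKK1 and 2 for WNT5A, each as 250 bases before to 50 after the start. For DKK3, which also rose, no promoter entry was available and none is shown. Matches on either strand to CTTTGA and CTTTGT (letters bound by TCF/LEF factors), GGAATG (TEAD factors) and TATAAA (the TATA box) are in capitals.

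DKK1, chr10:52314031-52314330, plus strand: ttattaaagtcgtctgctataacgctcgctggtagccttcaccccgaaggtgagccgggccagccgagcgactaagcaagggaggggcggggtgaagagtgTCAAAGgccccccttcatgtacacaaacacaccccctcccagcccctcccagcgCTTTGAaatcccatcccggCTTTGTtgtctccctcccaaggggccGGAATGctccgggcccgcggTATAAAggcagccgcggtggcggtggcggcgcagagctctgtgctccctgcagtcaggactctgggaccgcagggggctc
WNT5A first start, chr3:55487257-55487556, minus strand: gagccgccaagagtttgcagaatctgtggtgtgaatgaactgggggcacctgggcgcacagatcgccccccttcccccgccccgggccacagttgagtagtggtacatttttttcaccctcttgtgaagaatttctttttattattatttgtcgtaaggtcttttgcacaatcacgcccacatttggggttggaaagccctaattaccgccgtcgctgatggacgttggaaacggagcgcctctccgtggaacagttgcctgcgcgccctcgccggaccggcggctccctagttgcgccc
WNT5A second start, chr3:55481349-55481648, minus strand: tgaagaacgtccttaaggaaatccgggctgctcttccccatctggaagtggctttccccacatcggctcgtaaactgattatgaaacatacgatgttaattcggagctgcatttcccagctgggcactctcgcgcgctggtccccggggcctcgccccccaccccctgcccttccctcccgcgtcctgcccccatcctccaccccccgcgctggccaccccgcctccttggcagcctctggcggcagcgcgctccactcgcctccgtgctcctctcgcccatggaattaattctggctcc

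The DKK1 window holds CTTTGA at 95 bases before the start and, on the other strand, at 149, CTTTGT at 76, GGAATG at 50 and TATAAA at 30 bases before it. Both WNT5A windows hold none of these letters. Over 35116 promoters of the same length, 12.9% hold CTTTGA, 16.1% CTTTGT, 14% GGAATG and 11.5% TATAAA on either strand. A match describes these letters only, and binding was not measured.

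The rest of the pathway was read from 4 lists. Receptors and surface regulators of Wnt signalling were higher in 6 of 18 tested genes and lower in 0, where 11.5% of all tested genes were higher and 11.1% lower, with a median log2 difference of 0.15. LGR4, a receptor for R-spondins, rose 2.5-fold, the Frizzled genes FZD6 and FZD1 1.35-fold and 1.56-fold, and RNF43 is given above. LRP5 and LRP6, the co-receptors that DKK1 binds, had log2 differences of 0.07 and 0.08 that did not pass (limma adjusted p = 0.81 and 0.634).

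Other extracellular regulators, the list closest in kind to the antagonists, were mostly dim as well, with 7 of 23 genes tested, 0 higher and 2 lower (11.5% and 11.1% of all tested genes). RSPO3, a secreted R-spondin that strengthens Wnt signals through LGR receptors, fell 2.28-fold, from 10.98 to 9.78 in the group means. SULF2, a sulfatase that trims heparan sulfate around WNT proteins, fell 1.5-fold, from 10.60 to 10.01. NOTUM, the enzyme that removes the lipid from WNT proteins, had a log2 difference of 0.53 that did not pass (limma adjusted p = 0.128).

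Transducers and TCF/LEF factors changed in 2 of 24 tested genes, against 22.6% of all tested genes, with a median log2 difference of 0.00. BTRC, a ubiquitin ligase subunit that marks beta-catenin for breakdown, rose 1.61-fold, and the kinase gene CSNK1E 1.37-fold. CTNNB1, beta-catenin itself, stood at 13.32 and 13.30 in the group means. Beta-catenin target genes were higher in 3 of 15 tested members and lower in 1, at a median log2 difference of -0.12. Over all tested genes 22.6% changed, so this share of 4 in 15 is near the background. CCND1, cyclin D1, rose 1.9-fold, the differentiation inhibitor ID2 1.67-fold and the glutamine synthetase gene GLUL 1.37-fold, and the vessel growth factor gene VEGFA fell 1.33-fold. AXIN2, NKD1, SP5 and LGR5, widely used readouts of the pathway, were under the limit in these cells and not tested. NKD2, also under it, had groups apart, with means of 6.42 on the control arrays and 4.98 on the others. Of all genes under the limit, 6.31% had groups apart in that direction. The groups of the other untested genes of this list overlapped.

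**Figure D5:**
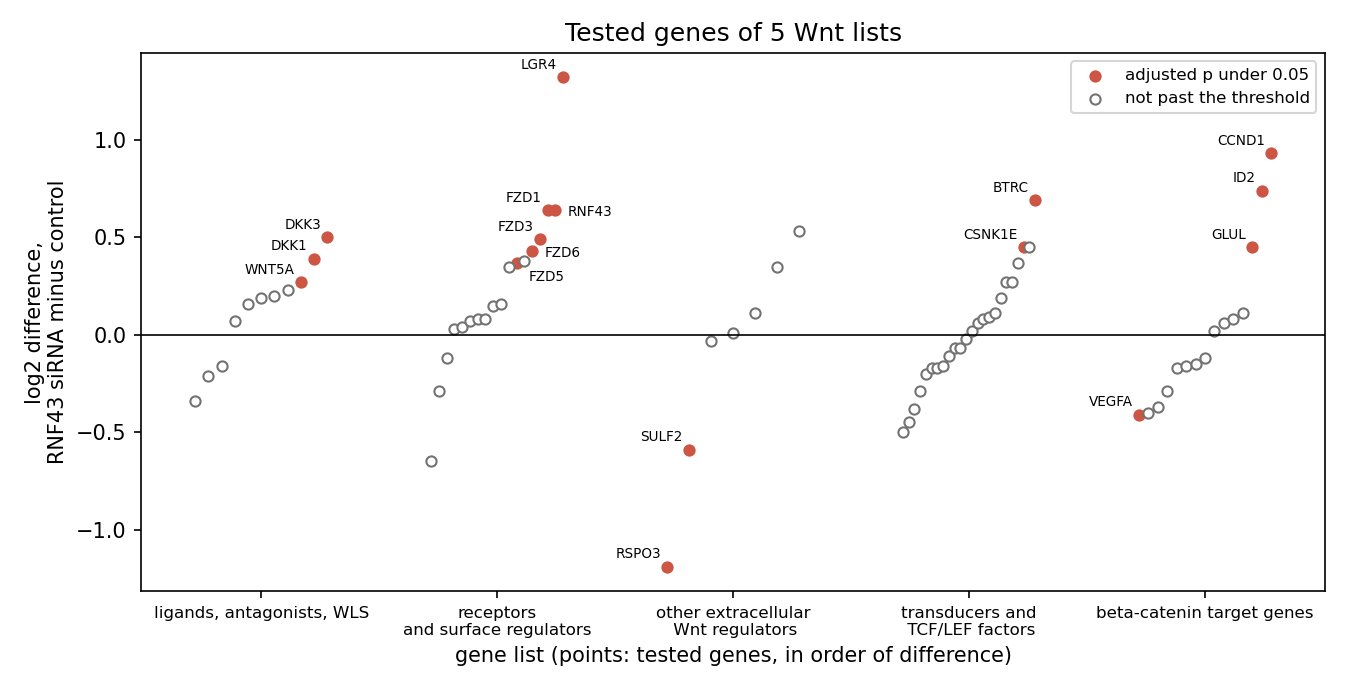
Log2 difference, RNF43 siRNA minus control (vertical axis), of the tested genes in 5 Wnt lists (horizontal axis), ordered by difference within each list, with 3 arrays per group. Filled points passed the threshold and are named, from RSPO3 at -1.19 to LGR4 at 1.32, and DKK3, DKK1 and WNT5A lie between 0.27 and 0.50.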

How the data were processed

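The deposited values are log2 signals, 1 column for each of 6 arrays, and the submitters' processing notes name MAS5 with no version or scaling target. Read as base 2, the authors' signals had near-equal linear means (497.03 to 497.23 after 2% was trimmed at either end), so arrays were already scaled. Values were used as given. Probe sets were named by the platform annotation, with symbols updated through RefSeq. Of 54613 probe sets, 41091 named 1 gene, 1801 several and 11721 were unnamed here. A gene was read by its single-symbol probe set with the highest mean, and tested where that mean was above the median of all probe-set means (5.83). The comparison used limma 3.58.1 (R 4.3.3; eBayes with an intensity trend, two-sided, Benjamini-Hochberg over 11853 genes, threshold 0.05). A second fit covered all probe sets that name 1 gene. Steps were tested on simulated data. Genes given value by value were the 11 tested and, under the filter, those with groups apart. WNT2, WNT5B, DKK2, DKK4, ROR2, LRP5, LRP6, NOTUM, CTNNB1 and the cell type markers given with values were added after their values were seen. So were the values of WNT1, SFRP1 and NKD2. Of each other Wnt list, up to 4 called genes with the smallest p are named. Members, lists and alternatives were chosen with earlier results of these data known. HNF4A, FZD8, TCF7 and CD68 of the lists were not analysed here.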

Additional observations from a re-analysis of the deposited data

How the results depend on the processing

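The comparison was repeated under 19 alternatives, of which 1, without both arrays numbered 3, was chosen after the data were seen. The count of changed genes was 2684 and lay between 1741 and 2656 without 1 array (1741 without RNF43 siRNA replicate 2). It was 1587 with probe sets averaged by gene. The count of genes of this set that rose was 3. It was 1 without an intensity trend and 1 to 2 without 1 array. In every alternative 0 of them fell. With the mean of probe sets, 5 genes of the set were above the median, and DKK3 could not be tested. Without 1 array 10 to 11 were above it. Of the probe sets of the set, 4 were called, against 2 with no filter, 2 without an intensity trend, 2 once those ending in _x_at or _s_at were left out, and 1 to 3 without 1 array. This family of fits was added after the data were seen. Signs turned for genes that had not passed and for DKK3. WNT2B became 0.08 and WNT10B 0.01 without RNF43 siRNA replicate 1, and WNT6 -0.14 and WNT7B -0.10 without control siRNA replicate 1. WNT6 also became -0.10 without RNF43 siRNA replicate 3, and WLS became -0.12 and DKK3 -0.03 once probe sets ending in _x_at or _s_at were left out. Without 1 array, WNT2B ran from -0.46 to 0.08, WNT6 from -0.14 to 0.25, WNT7B from -0.10 to 0.40 and WNT10B from -0.45 to 0.01. RNF43 was 0.48 without both arrays numbered 3, with its call lost. The cause of these changes was not tested. With the replicate block the count of changed genes was 3908 and DKK1, DKK3 and WNT5A kept their calls. The deviations of same-numbered arrays correlated at 0.162, 0.077 and 0.268, and those of differently numbered arrays at -0.211 to 0.086. Control siRNA replicate 2 correlated only slightly better with RNF43 siRNA replicate 1 (0.086) than with replicate 2 (0.077). The numbers were not taken as pairs, and these values do not decide whether the arrays were paired. Dim signals limit the 17 genes under the filter, where the SD between arrays had a median of 0.83.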

Other observations

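Markers of endothelial cells and leukocytes were low on these arrays, as were most hepatocyte markers, given above. Of 7 endothelial markers, 1 passed the filter, PECAM1, with group means of 6.58 and 6.83 (limma adjusted p = 0.476). Their linear signals summed to 207 to 231 on the control arrays and 234 to 271 on the arrays labelled RNF43 siRNA. Of 5 measured leukocyte markers 0 passed, with sums of 69 to 137 and 45 to 134. Among the fibroblast and stellate cell markers, LUM, a proteoglycan of connective tissue, stood at 13.36 and 13.17, and COL3A1, a fibrillar collagen, fell 2.54-fold from 9.11 to 7.77. The other 3 that fell were ACTA2, smooth muscle actin, from 8.56 to 7.57, FAP from 10.29 to 9.72 and DCN, the proteoglycan decorin, from 10.66 to 10.11. Not all of this list was bright. COL1A2, PDGFRB and THY1, with means over the 6 arrays of 5.01, 4.04 and 5.53, were under the filter and not tested. The hepatocyte marker AFP, the only one above the filter, stood at 7.01 and 6.41 and did not pass (limma adjusted p = 0.0877).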
